A study of Mus musculus with 6 samples.

Results

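Dendritic cells that carry Flt3 transcript were examined in the right lungs of 6 male mice, each profiled in a single-cell library of its own. A barcode was taken as a cell when it held at least 1000 unique molecular identifiers (UMIs, each one captured transcript molecule), at least 500 genes and at most 10% mitochondrial UMIs, and 25704 barcodes passed. The dendritic cells were then chosen by their own measured counts: at least 1 UMI of Flt3, at least 2 UMIs summed over Xcr1, Clec9a, Cd209a, Clec10a, Ccl22 and Fscn1, and no UMI of Cd79a, Cd3e or Atp6v0d2, genes of B cells, T cells and alveolar macrophages. These limits left 219 cells, or 0.852% of the passing barcodes. Each chosen cell was placed by the largest of 3 marker sums: Xcr1 and Clec9a for 46 cells, Cd209a and Clec10a for 106, and Ccl22 and Fscn1 for 63, with 4 cells tied. The first group is cDC1-like by its markers and is called cDC1 from here on. The others are called Cd209a/Clec10a cells and Ccl22/Fscn1 cells after the genes that chose them; Cd209a and Clec10a are markers of cDC2, but the genes that led this group included more monocyte than cDC2 markers, as given below.

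All 6 mice were 12 weeks old and carried the hCTLA4 allele, in which human CTLA4 sequence stands in the mouse gene, so that an antibody against human CTLA4 can bind. All received bleomycin through the oropharynx at 1.25 U per kg, in 2 doses 2 weeks apart, to injure the lung and induce fibrosis. From day 21, 3 mice (IgG1 1 to 3) received an IgG1 isotype antibody, and 3 (ipilimumab 1 to 3) received ipilimumab at 5 mg per kg, a monoclonal antibody that blocks CTLA4, 2 times a week for 4.5 weeks in the design of the study. No mouse without bleomycin was part of the comparison. The libraries held from 37666042 to 48612412 UMIs.

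Conventional dendritic cells arise from bone marrow precursors under the growth factor FLT3LG, whose receptor is encoded by Flt3. The cDC1 take up dead cells and cross-present their antigens to CD8 T cells, and the cDC2 present mainly to CD4 T cells. Either kind can mature, turn on CCR7 and the chemokine CCL22, and carry antigen to lymph nodes, where CD80 and CD86 on its surface give the second signal to T cells through CD28. CTLA4 competes with CD28 for CD80 and CD86, so that these cells display the ligands whose use ipilimumab alters.

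The label dendritic cells was checked against genes outside the rule. Zbtb46, which encodes a transcription factor largely restricted to conventional dendritic cells among leukocytes (chromosome 2, 181387762 to 181459426, GRCm38), stood at 250, 156 and 204 CPM (UMIs of the gene scaled to a common total over the summed cells of a mouse) in the dendritic cells of the IgG1 mice and at 245, 234 and 169 in those of the ipilimumab mice. Its mean of 210 ± 40.3 (SD, n = 6 mice) lay above 8.53 ± 2.22 in B cells, 5.98 ± 3.30 in T cells, 11.9 ± 4.41 in monocytes, and 3.09 ± 1.85 in alveolar macrophages of the same libraries, and above the 0 to 14.2 of their C1q macrophages, and no mouse overlapped. Cst3, encoding cystatin C, averaged 9428 ± 1096 CPM in the dendritic cells against 3052 ± 658 in C1q macrophages. Itgax, also outside the rule, went the other way against alveolar macrophages, at 93.1 ± 8.87 CPM in the dendritic cells and 368 ± 28.1 in them. It overlapped the 88.2 ± 47.5 of C1q macrophages and lay above the 20.5 ± 6.70 of B cells, 17.2 ± 7.21 of T cells and 25.9 ± 2.87 of monocytes. Transcripts of MHC class II, the molecules that display peptides to CD4 T cells, did not set the dendritic cells apart: Cd74, the class II invariant chain, averaged 12283 ± 1515 CPM in them, 9048 ± 712 in B cells and 18995 ± 6988 in C1q macrophages. These cell types were also cut from measured counts, so the differences are descriptions without a test.

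The chosen cells were rich in RNA and rested on few Flt3 molecules. Their UMIs ran from 1331 to 55470 with a median of 18770. Flt3 was at 1 UMI in 52 cells and at 2 or more in 167, with a median of 3 and a highest count of 36. At least 1 Flt3 UMI was also found in 8.13% of 9196 B cells, 5.67% of 935 monocytes, 1.38% of 3623 T cells and 0.860% of 3371 alveolar macrophages. Flt3 made up 4.90 to 14.0 CPM of the RNA in barcodes of at most 100 UMIs, a measure of free RNA. Flt3 alone therefore did not select the cells. Just outside the rule, with the other limits met, were 66 cells with a marker sum of 0 and 26 with a sum of 1, in which Zbtb46 stood at 32.1 and 60.8 CPM and Lyz2, the macrophage and monocyte lysozyme, at 15509 and 17054. Just inside were 14 cells with a sum of 2 and 11 with a sum of 3, with Zbtb46 at 44.5 and 31.1 CPM, Lyz2 at 9728 and 7144, and the plasmacytoid gene Siglech at 470 and 317.

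Some chosen cells carried genes of other lineages. At least 2 UMIs of Siglech, Ccr9 and Ly6d, genes of plasmacytoid dendritic cells, were found in 39 cells, with 0, 5 and 9 in the IgG1 mice and 8, 9 and 8 in the ipilimumab mice. The 12 plasmacytoid genes listed summed to 335, 1094 and 3609 CPM in the IgG1 mice and to 2757, 1646 and 1440 in the ipilimumab mice, led by Tcf4. At least 2 UMIs of the monocyte genes Ly6c2, F13a1 and Vcan were found in 56 cells, of which 42 were Cd209a/Clec10a cells, with 4, 10 and 6 in the IgG1 mice and 11, 11 and 14 in the ipilimumab mice. The 18 monocyte genes summed to 4817, 7168 and 3344 CPM and to 5871, 5398 and 5382, led by Lyz2. The 4 tied cells carried both sets of genes. Of 20 macrophage genes, whose most abundant was Fabp5, Marco, Krt79 and Atp6v0d2 were at 0; the other genes summed to 730 to 1197 CPM per mouse. Of 16 T and NK genes, Ccl5 gave 89.8% of the summed level, and of 12 B cell genes Ighm gave 59.1%. The 14 epithelial genes summed to 54.8 to 156 CPM in 5 mice and to 22743 CPM in ipilimumab 3, where 2 cDC1 cells held 15822 and 11330 UMIs of the club cell gene Scgb1a1. A doublet score against simulated pairs marked 1 of the 219 cells. Of the 25635 distinct barcodes, 68 passed in 2 or more libraries, among them 2 dendritic cells; no barcode was a dendritic cell in both. Shares and treatment differences were also computed without such cells wherever enough cells were left.

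The dendritic cells were a slightly larger share of the ipilimumab libraries, but under the main limits the mice overlapped. They numbered 23 of 4530, 32 of 4320 and 24 of 3344 passing barcodes in the IgG1 mice, or 0.508%, 0.741% and 0.718%. In the ipilimumab mice they numbered 35 of 5170, 48 of 4160 and 57 of 4180, or 0.677%, 1.15% and 1.36%. Ipilimumab 2 and 3 were above every IgG1 mouse, and ipilimumab 1 was within the IgG1 range. The means were 0.655% ± 0.128 and 1.06% ± 0.352 (SD, n = 3 each), a difference of 0.409 percentage points with p = 0.3 in an exact two-sided permutation test, whose smallest p with 3 against 3 mice is 0.1. This overlap depended on the UMI limit. At a limit of 2000 UMIs the groups were apart, at 0.521%, 0.754% and 0.731% against 0.780%, 1.19% and 1.40% (exact permutation p = 0.1). The passing barcodes of ipilimumab 1 then fell from 5170 to 3848. Without cells that carried at least 2 UMIs of the defining markers of B cells, of T and NK cells, of alveolar macrophages or of epithelial cells, 96 cells were left, and the shares were 0.353%, 0.324% and 0.329% against 0.232%, 0.577% and 0.455%. The difference was then 0.0858 points (p = 0.4, exact permutation test), and ipilimumab 1 was the lowest of the 6 mice. Applied after every barcode had been thinned to 1000 UMIs, the rule left 13 cells, 0, 2 and 2 in the IgG1 mice and 1, 6 and 2 in the ipilimumab mice, with means of 0.0354% and 0.0705%, a ratio of 1.99 beside 1.62 before thinning (p = 0.5, exact permutation test).

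Of the 3 subset shares, that of Cd209a/Clec10a cells had separate treatment groups, and no share passed the test. The Cd209a/Clec10a cells made up 43.5%, 43.8% and 45.8% of the dendritic cells in the IgG1 mice and 51.4%, 47.9% and 52.6% in the ipilimumab mice. Every ipilimumab mouse was above every IgG1 mouse, with means of 44.4% ± 1.29 and 50.7% ± 2.45, p = 0.1 (the smallest this exact permutation test can give) and 0.267 after Benjamini-Hochberg adjustment over the 4 shares tested. This separation depended on which cells were counted. Without the cells that carried those markers of other lineages the shares were 43.8%, 28.6% and 18.2% against 25.0%, 20.8% and 52.6%, a difference of 2.65 points in place of 6.31 (p = 0.8, exact permutation test). The mice also overlapped without the monocyte-marked cells, at 31.6%, 27.3% and 44.4% against 41.7%, 37.8% and 46.5%, without the plasmacytoid-marked cells (p = 0.3 each, exact permutation tests), without the Flt3 requirement, with a marker sum of at least 3 in its place (p = 0.5), and with at most 5% mitochondrial UMIs or a largest marker sum at least 2 above the next (p = 0.2 each). The groups stayed apart under 4 other settings (p = 0.1 each, exact permutation tests). These were a marker sum of at least 3 with Flt3 still required, and at least 2000 UMIs. The other 2 left out the cell marked by the doublet score or the cells rich in Scgb1a1. The cDC1 made up 3 of 23 cells, 15.6% and 20.8% in the IgG1 mice and 22.9%, 18.8% and 28.1% in the ipilimumab mice, and ipilimumab 2 was within the IgG1 range. The exact permutation p was 0.2, adjusted 0.267. The Ccl22/Fscn1 cells made up 43.5%, 40.6% and 25.0% against 22.9%, 33.3% and 17.5%, again with overlap and the same exact permutation p of 0.2, adjusted 0.267; without the plasmacytoid-marked cells they were apart, at 43.5%, 44.4% and 40% against 25.9%, 38.5% and 20.4% (exact permutation p = 0.1). As a share of all passing barcodes the Ccl22/Fscn1 cells were no fewer in the ipilimumab mice, with a difference of 0.0258 points in the other direction (p = 0.8, exact permutation test). By that measure the other subsets had separate groups (p = 0.1 each, exact permutation tests). The cDC1 stood at 0.0662%, 0.116% and 0.150% against 0.155%, 0.216% and 0.383%. For Cd209a/Clec10a cells the values were 0.221%, 0.324% and 0.329% against 0.348%, 0.553% and 0.718%.

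**Figure D1:**
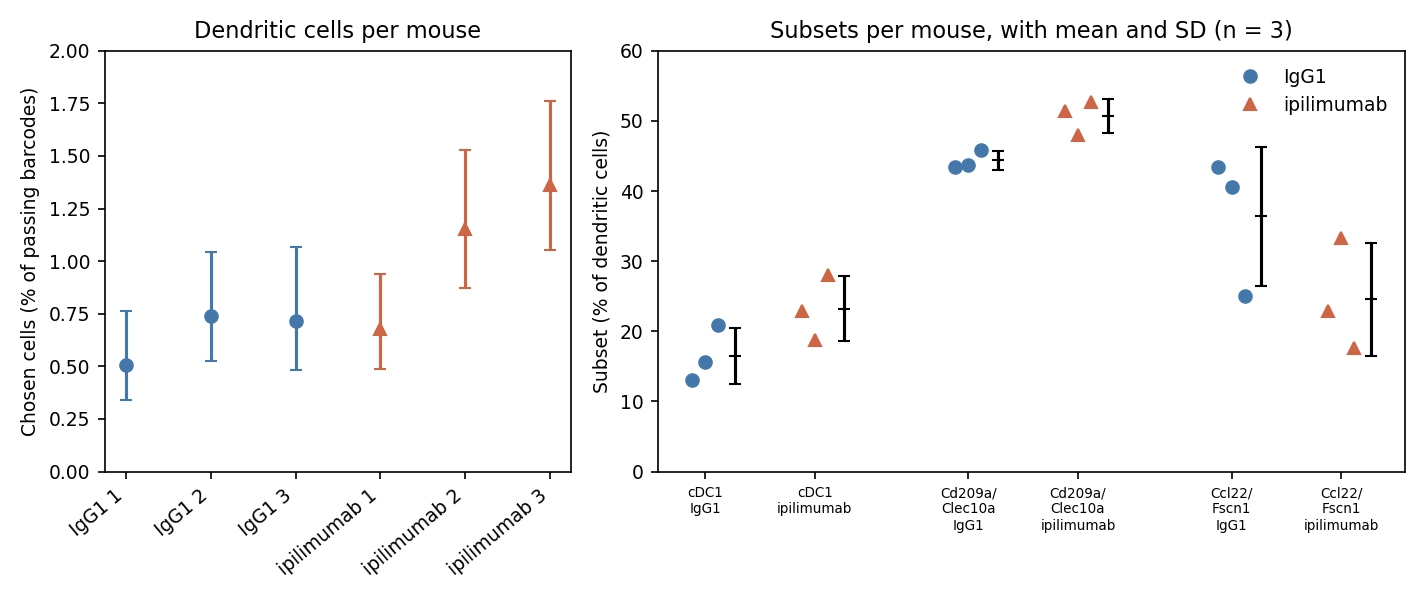
Left, chosen dendritic cells as a percentage of passing barcodes in each mouse, with 95% Wilson intervals that cover counting error only; right, each subset as a percentage of the dendritic cells, 1 point per mouse, with the mean and SD of 3 mice beside them. The intervals of all IgG1 mice overlap that of ipilimumab 1, those of IgG1 2 and 3 that of ipilimumab 2, and that of IgG1 3 just meets ipilimumab 3. On the right only the Cd209a/Clec10a shares of the 2 treatments lie apart.

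The 3 subsets differed in many genes that the rule did not use, although these were measured in the same cells as the markers that made the subsets, so that the differences are given as levels in CPM without a test. Means are over mice with at least 5 cells of a subset, which leaves out IgG1 1 for cDC1, with 3 cells.

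In cDC1 the genes with the highest ratio to the other subsets were P3h2, Lrrk2, Ppt1, P2ry14, Naaa, Arhgap18, Prkar2a, Hepacam2, Igf2r and Hip1, each higher in cDC1 in all 5 mice. P3h2, a collagen prolyl hydroxylase gene (chromosome 16, 25959288 to 26105784), averaged 492 CPM in cDC1, 9.64 in Cd209a/Clec10a cells and 73.3 in Ccl22/Fscn1 cells. Naaa, which encodes a lysosomal amidase long used as a cDC1 marker, averaged 716 ± 223 CPM against 156 ± 42.5 and 185 ± 134. Cadm1, an adhesion molecule of cDC1, averaged 906 ± 402 CPM against 45.3 ± 38.8 in Cd209a/Clec10a cells and 332 ± 268 in Ccl22/Fscn1 cells, where IgG1 2 alone reached 829. Wdfy4, required for cross-presentation, averaged 1129 ± 420 against 322 ± 116 and 398 ± 250, Tlr3, the receptor for double-stranded RNA, 84.2 ± 57.6 against 3.57 ± 5.67 and 19.8 ± 17.1, and Itgae, the CD103 integrin chain, 254 ± 140 against 14.9 ± 29.4 and 62.9 ± 50.5. The spread of Irf8, the transcription factor on which cDC1 depend, was too wide to order the subsets, at 788 ± 426, 293 ± 206 and 339 ± 94.0 CPM.

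In Cd209a/Clec10a cells the leading genes were Ms4a4c, F13a1, Plcb1, Ifitm3, Ifitm6, Fn1, Ms4a6c, Cebpb, Itgam and Mgl2, of which 4 (Ms4a4c, F13a1, Fn1 and Cebpb) were on the list of monocyte genes and 2 (Itgam and Mgl2) on that of cDC2 genes. Of the 106 cells 42 were marked by the monocyte genes and 17 by the plasmacytoid genes. Ifitm3, an interferon-inducible antiviral gene, averaged 1370 CPM in Cd209a/Clec10a cells over the 5 mice, against 172 in cDC1 and 21.5 in Ccl22/Fscn1 cells. Mgl2, a galactose-binding lectin of type 2 dendritic cells, was at 196, 156 and 386 CPM in Cd209a/Clec10a cells of the IgG1 mice and at 605, 236 and 674 in those of the ipilimumab mice, and averaged 18.7 ± 9.35 in cDC1. Sirpa, the surface receptor used to sort cDC2, averaged 182 ± 62.6 CPM against 39.6 ± 38.0 and 64.3 ± 53.9. Fcer1g, the common gamma chain of Fc receptors, averaged 1004 ± 212 against 276 ± 209 and 206 ± 87.5, and Fcgr3, an Fc receptor for IgG, 64.0 ± 38.1 against 0.425 ± 0.949 in cDC1 and 0 to 17.6 in Ccl22/Fscn1 cells. The cells with monocyte genes lay mainly in this subset, as given above, and the summed monocyte genes in Cd209a/Clec10a cells ran from 5078 to 12914 CPM per mouse, against 1724 to 3950 in cDC1 and 1774 to 3286 in Ccl22/Fscn1 cells.

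The Ccl22/Fscn1 cells stood furthest from the others. Their leading genes were Ccl5, Apol7c, Mreg, Cacnb3, Fabp5, Il12b, Cd63, Ccr7, Slco5a1 and H2-M2. Ccr7, the receptor that draws cells into lymphatics (chromosome 11, 99144196 to 99155077), was at 2683, 1806 and 3369 CPM in the IgG1 mice and at 1034, 2207 and 2908 in the ipilimumab mice; in Cd209a/Clec10a cells its highest value was 300 CPM and in cDC1 with at least 5 cells 2.12 CPM. Ccl5, a chemokine for T cells, averaged 4156 ± 1554 CPM against 33.0 ± 41.0 in Cd209a/Clec10a cells and 4.46 ± 4.52 in cDC1, and Ccl17, a ligand of CCR4 like CCL22, 1453 ± 287 against 149 ± 137 and 123 ± 192. Relb, an NF-kB subunit, averaged 572 ± 56.2 CPM against 140 ± 34.1 and 89.8 ± 57.8, and Socs2, an inhibitor of cytokine signaling, 247 ± 56.5 against 1.64 ± 2.85 and 4.67 ± 10.4. Il12b, which encodes the p40 chain of IL-12 and IL-23, averaged 922 ± 516 CPM against 4.75 ± 10.6 in Cd209a/Clec10a cells and 42.3 ± 33.7 in cDC1, although the 3 cDC1 cells of IgG1 1 that were left out held 1744 CPM of Il12b and 138 of Ccr7. In B cells, monocytes and C1q macrophages its mean was at most 0.450 CPM. Aldh1a2, which makes retinoic acid, averaged 122 ± 93.3 CPM against 3.42 ± 3.61 in Cd209a/Clec10a cells, and Itgb8, part of an integrin that activates TGF-beta, 130 ± 98.1 against 4.73 ± 11.6, whereas Tgfb1 itself averaged 119 ± 70.6 against 333 ± 55.4. The Ccl22/Fscn1 cells had less H2-Ab1, a class II chain, at 3347 ± 1694 CPM against 5279 ± 1394 in Cd209a/Clec10a cells, but the mice overlapped.

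The Ccl22/Fscn1 cells were also sorted by their second markers. Of the 63 cells, 20 had more Xcr1 and Clec9a than Cd209a and Clec10a UMIs, 2 had more of the latter, 2 had equal numbers above 0 and 39 had none. The cDC1 markers led in 11 of 29 cells in the IgG1 mice and in 9 of 34 in the ipilimumab mice. Among all subsets, both other sums were at 0 in 26 of 46 cDC1, 64 of 106 Cd209a/Clec10a cells and 39 of 63 Ccl22/Fscn1 cells.

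**Figure D2:**
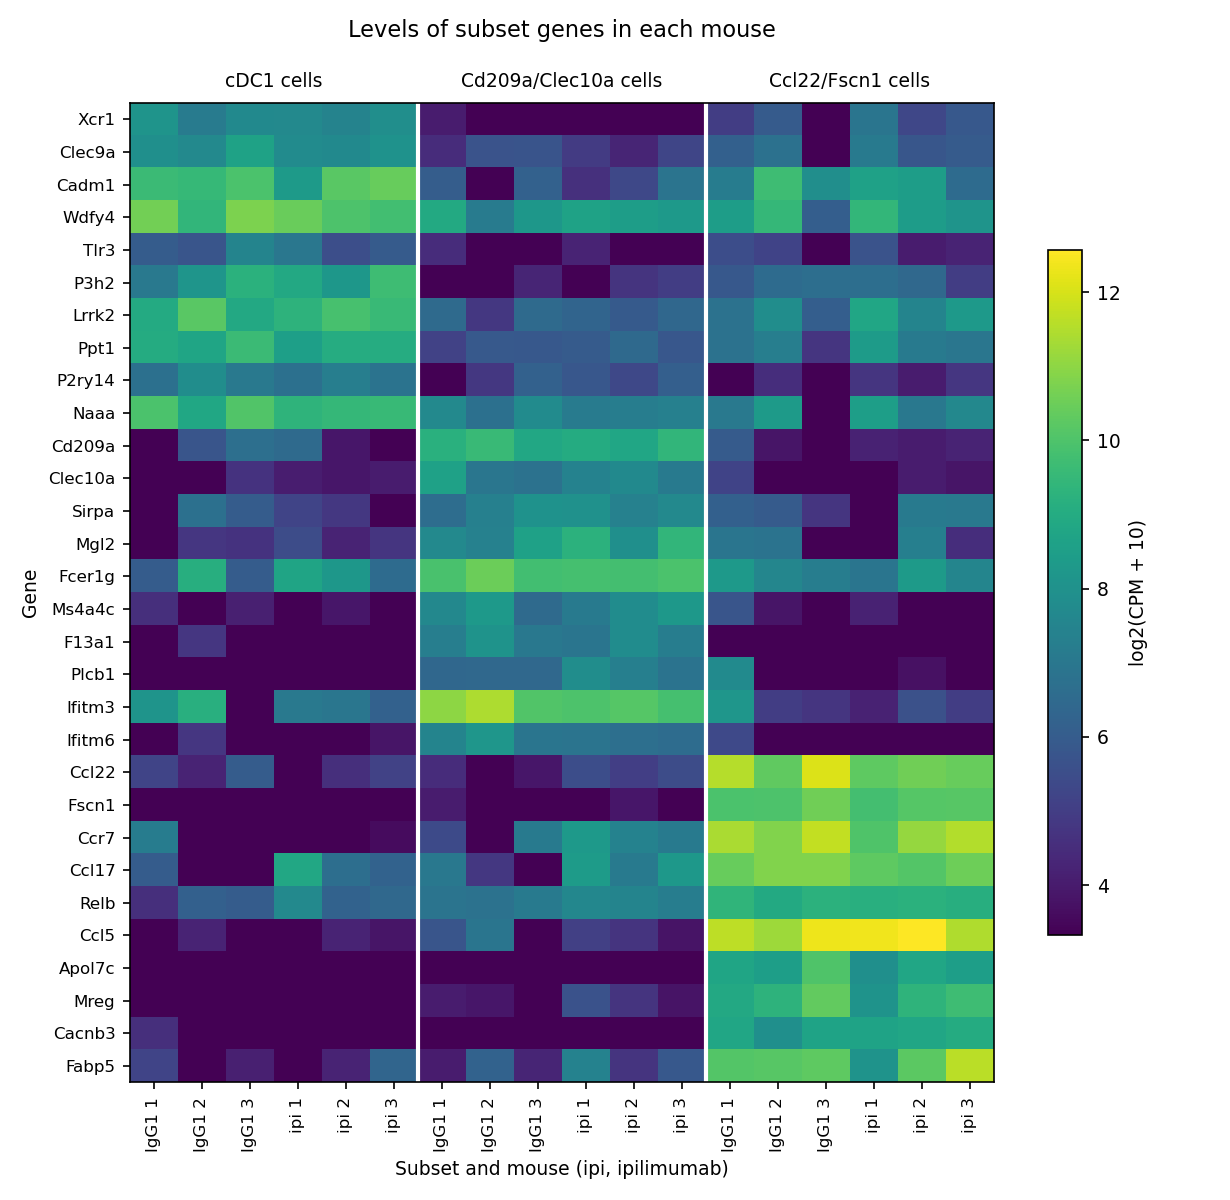
Heat map of genes (lines) in each subset and mouse (columns; ipi, ipilimumab) as log2(CPM + 10), with the marker genes of the rule and known genes above the 5 leading genes of each subset. The blocks along the diagonal follow from how the subsets and genes were chosen, the cDC1 column of IgG1 1 rests on 3 cells, and Apol7c and Cacnb3 are at or near 0 outside the Ccl22/Fscn1 cells.

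The ligands of CTLA4 were found in all 3 subsets. Cd80 (chromosome 16, 38455561 to 38496335) averaged 505 ± 188 CPM in Ccl22/Fscn1 cells, 270 ± 118 in Cd209a/Clec10a cells and 263 ± 81.2 in cDC1, and Cd86 (chromosome 16, 36603869 to 36666081) 920 ± 534, 770 ± 230 and 1014 ± 264; for neither gene did the subsets differ beyond the spread of the mice. Over all dendritic cells Cd80 averaged 351 ± 118 CPM, above the 13.2 ± 3.38 of B cells and 72.8 ± 17.7 of monocytes and overlapping the 152 ± 144 of C1q macrophages, whereas Cd86 averaged 845 ± 168, close to the 850 ± 81.1 of B cells and below the 1035 ± 222 of C1q macrophages. Cd40, which receives help from T cells through CD40 ligand, averaged 241 ± 91.6 CPM in Ccl22/Fscn1 cells, 45.3 ± 33.3 in Cd209a/Clec10a cells and 24.6 ± 36.2 in cDC1. Cd274, encoding the co-inhibitory ligand PD-L1, averaged 408 ± 144 CPM in Ccl22/Fscn1 cells against 37.4 ± 27.6 in Cd209a/Clec10a cells and 48.5 ± 56.1 in cDC1, and no Ccl22/Fscn1 sum of a mouse overlapped the others. Icosl, the ligand of ICOS, averaged 89.1 ± 46.4, 35.9 ± 5.43 and 38.5 ± 16.8 CPM.

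Treatment was compared over mice by summing the UMIs of each subset in each mouse and testing every gene with the edgeR quasi-likelihood test and Benjamini-Hochberg adjustment, with calls where the adjusted p was below 0.05 and the log2 fold change lay beyond 0.3 in either direction. In this and the next paragraphs CPM are scaled with TMM factors, log2 fold changes are ipilimumab over IgG1, and the p-values measure the spread between these mice. No gene was called. Over all dendritic cells 0 of 6303 genes were called (0% of those tested), 307 had an unadjusted p under 0.05, 127 higher and 180 lower, and DESeq2 called 1, Cxcl2. In cDC1, with 2 IgG1 mice against 3, 0 of 2930 genes were called (0%), 183 had an unadjusted p under 0.05, and DESeq2 called 1, Hspa1a. In Cd209a/Clec10a cells 0 of 4327 genes were called (0%), 231 had an unadjusted p under 0.05, and DESeq2 called 3, Cxcl2, Bcl2a1b and AA467197. In Ccl22/Fscn1 cells 0 of 3351 genes were called (0%), 108 had an unadjusted p under 0.05, and DESeq2 called none. Without the filter on low counts edgeR called 60, 25, 60 and 28 genes in these 4 comparisons; the cause was not tested. The median SE of a log2 fold change was 0.30 over all dendritic cells, 0.46 in cDC1, 0.36 in Cd209a/Clec10a cells and 0.43 in Ccl22/Fscn1 cells, which limits the size of a difference that could be detected at this depth.

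As a background for the genes named next, every ipilimumab mouse lay above every IgG1 mouse for 4.71% of the genes tested over all dendritic cells and below for 5.19%. These shares were 12.2% and 11.9% in cDC1, 5.59% and 5.02% in Cd209a/Clec10a cells, and 4.95% and 4.48% in Ccl22/Fscn1 cells. A gene was tested when its count reached a limit in enough mice of either treatment, 35.6 CPM in 3 mice for Cd209a/Clec10a cells, so that a gene low in the IgG1 mice could enter through the ipilimumab mice alone, and its direction was then favored by the filter. This held for 0.786% of the genes tested in Cd209a/Clec10a cells, which reached the limit in no IgG1 mouse. A weaker tilt reached further there, since 798 of 4327 genes met the limit in more ipilimumab than IgG1 mice. The reverse was true of 482. In cDC1 6.18% of the genes tested, or 181 of 2930, reached the limit in no IgG1 mouse, and 67 in no ipilimumab mouse.

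The gene with the smallest p in Cd209a/Clec10a cells was Cxcl2, a chemokine that attracts neutrophils through CXCR2 (chromosome 5, 90903871 to 90905938). It stood at 65.3, 14.9 and 10.2 CPM in Cd209a/Clec10a cells of the IgG1 mice and at 684, 255 and 319 in those of the ipilimumab mice. Cxcl2 reached the limit of the filter in 3 ipilimumab mice and 1 IgG1 mouse, and so would not have been tested without the ipilimumab mice. The groups did not overlap, with a log2 fold change of 3.92 (SE 0.62) and an adjusted p of 0.358 in the edgeR quasi-likelihood test. DESeq2 gave a log2 fold change of 3.91 with an adjusted p of 9.21e-07. The signal came from few cells: 2 of 10, 2 of 14 and 2 of 11 Cd209a/Clec10a cells of the IgG1 mice had a Cxcl2 UMI, and 6 of 18, 7 of 23 and 7 of 30 of the ipilimumab mice. The summed UMIs were 9, 3 and 2 against 221, 99 and 141, and 1 cell in each ipilimumab mouse held 138, 65 and 86 of them, or 62.4%, 65.7% and 61.0%. The cell with 138 UMIs was the 1 cell marked by the doublet score, and it carried 7 UMIs of Ly6c2, F13a1 and Vcan. Cells marked by those monocyte genes held 8, 1 and 0 of the Cxcl2 UMIs of the IgG1 mice and 218, 24 and 43 of those of the ipilimumab mice. In the Cd209a/Clec10a cells without that mark Cxcl2 stood at 9.37, 23.4 and 12.1 CPM, unscaled, in the IgG1 mice and at 14.6, 259 and 264 in the ipilimumab mice, so that ipilimumab 1 lay within the IgG1 range. Free RNA held more Cxcl2 in each IgG1 library than in each ipilimumab library, at 1700, 2896 and 1598 CPM against 1242, 1540 and 1457. Without the Flt3 requirement, with a marker sum of at least 3 in its place, the log2 fold change in Cd209a/Clec10a cells was 1.35 (edgeR adjusted p 0.931). In plain CPM, without TMM scaling, Cxcl2 averaged 512 ± 174 in monocytes and 3225 ± 1494 in C1q macrophages, above the 138 ± 141 of all dendritic cells. In Ccl22/Fscn1 cells the plain CPM of Cxcl2 was 70.7, 30.5 and 25.1 against 25.2, 96.4 and 413, and the mice overlapped.

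Since the Cxcl2 difference and the Ccl22 difference described further on were the largest of the chemokine genes in either direction over all dendritic cells, sequence before each gene is shown from RefSeq, build GRCm38.p6, plus strand, 5′ to 3′. The windows searched were the 250 bases before the RefSeq transcript start. That start lies downstream of the GENCODE gene start given in the text, so that the last 28 bases of the Cxcl2 window and the last 94 of the Ccl22 window are inside the GENCODE genes and are not printed. The letters GGGA, any 2 bases and TTCC, a core motif of NF-kB binding sites, were searched on both strands, and capitals mark where they were found. In Cxcl2, printed as chr5:90903649-90903870, they matched at 2 overlapping places, starting 97 and 96 bases before the RefSeq start. In Ccl22, printed as chr8:94745434-94745589, these letters are not in the window. Of 32851 promoter windows, 397 held them (1.21%).
Cxcl2: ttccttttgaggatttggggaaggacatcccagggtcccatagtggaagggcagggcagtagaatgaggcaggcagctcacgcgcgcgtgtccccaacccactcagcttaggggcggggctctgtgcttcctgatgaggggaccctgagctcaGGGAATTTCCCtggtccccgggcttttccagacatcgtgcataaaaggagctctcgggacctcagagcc
Ccl22: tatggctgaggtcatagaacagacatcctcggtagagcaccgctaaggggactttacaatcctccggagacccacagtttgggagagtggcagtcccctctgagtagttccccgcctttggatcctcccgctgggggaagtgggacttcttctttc
Of the 10 leading genes of each subset, 6 of the Ccl22/Fscn1 genes had 8 windows in the table, of which 0 held the letters, 9 of the cDC1 genes had 13 windows, of which 0 did, and 9 of the Cd209a/Clec10a genes had 10 windows, of which 1 did, that of Ifitm3.

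Of the ligands and receptors of T cell help, Cd40 and Cd80 were higher in Cd209a/Clec10a cells of every ipilimumab mouse. Cd40 (chromosome 2, 165055627 to 165072948) stood at 21.8, 19.9 and 15.3 CPM in the IgG1 mice and at 55.7, 103 and 83.8 in the ipilimumab mice, with a log2 fold change of 2.09 (SE 0.43) and an edgeR adjusted p of 0.358. No IgG1 mouse reached the limit of the filter for Cd40, which was tested through the 3 ipilimumab mice alone. It was found in 2 of 10, 3 of 14 and 3 of 11 Cd209a/Clec10a cells of the IgG1 mice and in 8 of 18, 11 of 23 and 17 of 30 of the ipilimumab mice, so that more cells took part than for Cxcl2, and free RNA held 17.3 to 31.4 CPM of Cd40 in either treatment. In plain CPM Cd40 averaged 44.9 ± 2.67 in B cells, 49.7 ± 29.2 in C1q macrophages, 14.8 ± 3.31 in monocytes and 0.871 ± 0.871 in alveolar macrophages of the same libraries, beside the 45.3 ± 33.3 of Cd209a/Clec10a cells. Cd80 stood at 268, 139 and 153 CPM against 427, 406 and 387, with a log2 fold change of 1.14 (SE 0.28) and an edgeR adjusted p of 0.603. Without the Flt3 requirement the log2 fold changes were 1.40 for Cd40 and 0.56 for Cd80 (edgeR adjusted p 0.635 and 0.915). Cd86 overlapped, at 1168, 398 and 781 CPM against 743, 1026 and 973, with a log2 fold change of 0.24 (SE 0.34). In Ccl22/Fscn1 cells Cd40 was also higher in each ipilimumab mouse, at 263, 148 and 176 CPM against 308, 417 and 300 (log2 fold change 0.80, SE 0.34, edgeR adjusted p 0.996), while Cd80 overlapped with a log2 fold change of 0.24 (SE 0.41) that turned to -0.10 without IgG1 3. Over all dendritic cells no gene of the 8 tested of 14 co-stimulatory genes had separate groups, and their median log2 fold change was -0.00 beside -0.01 over all genes; with the 3 subsets at equal weight it was 0.30 beside 0.03. In Cd209a/Clec10a cells 7 were tested, and Cd40 and Cd80 were the 2 with separate groups. Among all genes tested there 5.59% were higher and 5.02% lower in every ipilimumab mouse. Of the 7 genes 5 reached the limit of the filter in every mouse, with a median of 0.24 beside -0.03 over all genes that did so there; since the filter chose the genes, neither the count nor the median bears on the list as a whole.

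**Figure D3:**
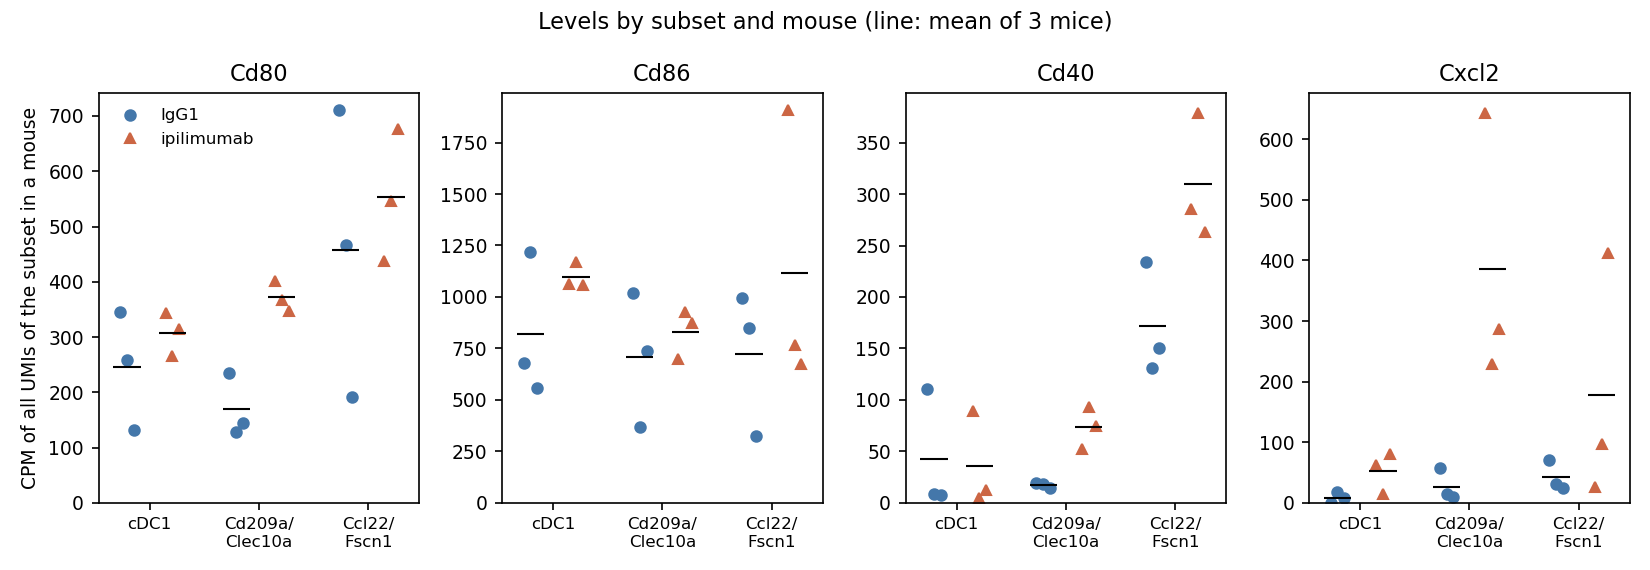
CPM of Cd80, Cd86, Cd40 and Cxcl2 (each panel on its own linear axis from 0) by subset, 1 point per mouse, with lines at the mean of 3 mice. The Cd209a/Clec10a points of the 2 treatments lie apart for Cd80, Cd40 and Cxcl2 and overlap for Cd86, and the cDC1 points of IgG1 1 rest on 3 cells.

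Other genes of Cd209a/Clec10a cells with separate groups included 2 of the Bcl-2 family, which hold back apoptosis. Bcl2a1b stood at 174, 99.6 and 102 CPM in the IgG1 mice and at 393, 394 and 324 in the ipilimumab mice, with a log2 fold change of 1.59 (SE 0.29), an edgeR adjusted p of 0.358 and a DESeq2 adjusted p of 0.0195; its reads may be shared with near-identical Bcl2a1 copies. Bcl2l1, which encodes BCL-XL, stood at 0, 0 and 5.10 CPM against 40.2, 74.6 and 43.0. Bcl2l1 and Cd274 reached the limit of the filter in no IgG1 mouse, and Ccl17 and Ccr7 in 1, so that these genes too were tested through the ipilimumab mice in which they are higher. Ccl17 stood at 138, 19.9 and 0 CPM against 347, 144 and 333 (log2 fold change 2.55, SE 0.88, edgeR adjusted p 0.730), Cd274 at 0, 24.9 and 20.4 against 68.1, 77.2 and 54.3 (1.97, SE 0.56, 0.656), and Ccr7 at 36.3, 0 and 138 against 319, 180 and 143 (1.84, SE 0.82, 0.918), groups that nearly touched. In ipilimumab 1 a single cell held 82 of the 103 Ccr7 UMIs and in IgG1 3 another held 19 of 27, and the log2 fold change ran from 1.22 without IgG1 2 to 3.75 without IgG1 3. Lower in Cd209a/Clec10a cells of each ipilimumab mouse were Foxo3, a transcription factor of quiescence, at 72.5, 144 and 148 CPM against 49.5, 36.0 and 47.5, and Irf4, a transcription factor of cDC2, at 109, 99.6 and 71.4 against 68.1, 61.7 and 38.5 (log2 fold change -0.73, SE 0.35, edgeR adjusted p 0.918).

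Genes listed for mature dendritic cells gave no call over all dendritic cells, and some had separate groups. Ccl22 (chromosome 8, 94745590 to 94751699) stood at 1606, 554 and 1115 CPM in the IgG1 mice and at 249, 523 and 301 in the ipilimumab mice, with IgG1 2 close to ipilimumab 2, a log2 fold change of -1.60 (SE 0.38) and an edgeR adjusted p of 0.906. Il12b stood at 690, 419 and 392 CPM against 327, 202 and 58.9 (log2 fold change -1.37, SE 0.50, edgeR adjusted p 0.980), with 18.2% to 74.2% of the UMIs of a mouse in 1 cell, and Fscn1, the actin bundler of mature cells, at 541, 434 and 381 against 164, 374 and 231 (-0.81, SE 0.29, 0.980). Ccl22 and Fscn1 also chose the cells, so their values are a description and they are left out of the count that follows. Of the 28 other genes listed for mature or migratory dendritic cells, 26 were tested. Of these, 7 were lower in every ipilimumab mouse (Il4i1, Nudt17, Traf1, Il15ra, Anxa3, Apol7c and Mreg) and none higher. Among all genes tested 5.19% were lower and 4.71% higher in this way. The median log2 fold change of the 26 genes was -0.38 beside -0.01 over all genes.

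Within Ccl22/Fscn1 cells 26 of these genes were tested, 1 was lower in every ipilimumab mouse and none higher. Among all genes tested there 4.48% were lower and 4.95% higher in this way. The median of the 26 genes was -0.17 beside -0.00 over all genes. Ccl22 stood there at 3290, 1431 and 5047 CPM against 1324, 1662 and 1540, with overlap and a log2 fold change of -1.10 (SE 0.38, edgeR adjusted p 0.996). This value, also a description, was -1.46 without IgG1 2, -0.64 without IgG1 3 and -0.68 without the Flt3 requirement. In Cd209a/Clec10a cells 10 were tested, among them Ccr7, Relb, Samsn1 and Marcks with every ipilimumab mouse above every IgG1 mouse. Among all genes tested there 5.59% were higher and 5.02% lower in this way. Of the 10 genes 3 reached the limit of the filter in more ipilimumab than IgG1 mice and none in fewer, which tilts their median of 0.64 upward; over the 7 that reached it in every mouse the median was 0.56 beside -0.03 over all such genes. The genes that did not pass the filter have no value here, so that these figures do not describe the whole list. When the 3 subsets were given equal weight in every mouse, the median over the 28 tested genes of the whole list, Ccl22 and Fscn1 included, was -0.12 on the log2(CPM + 10) scale, beside 0.03 over all genes. The share of Ccl22/Fscn1 cells among the dendritic cells moved with the first result, as given above.

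**Figure D4:**
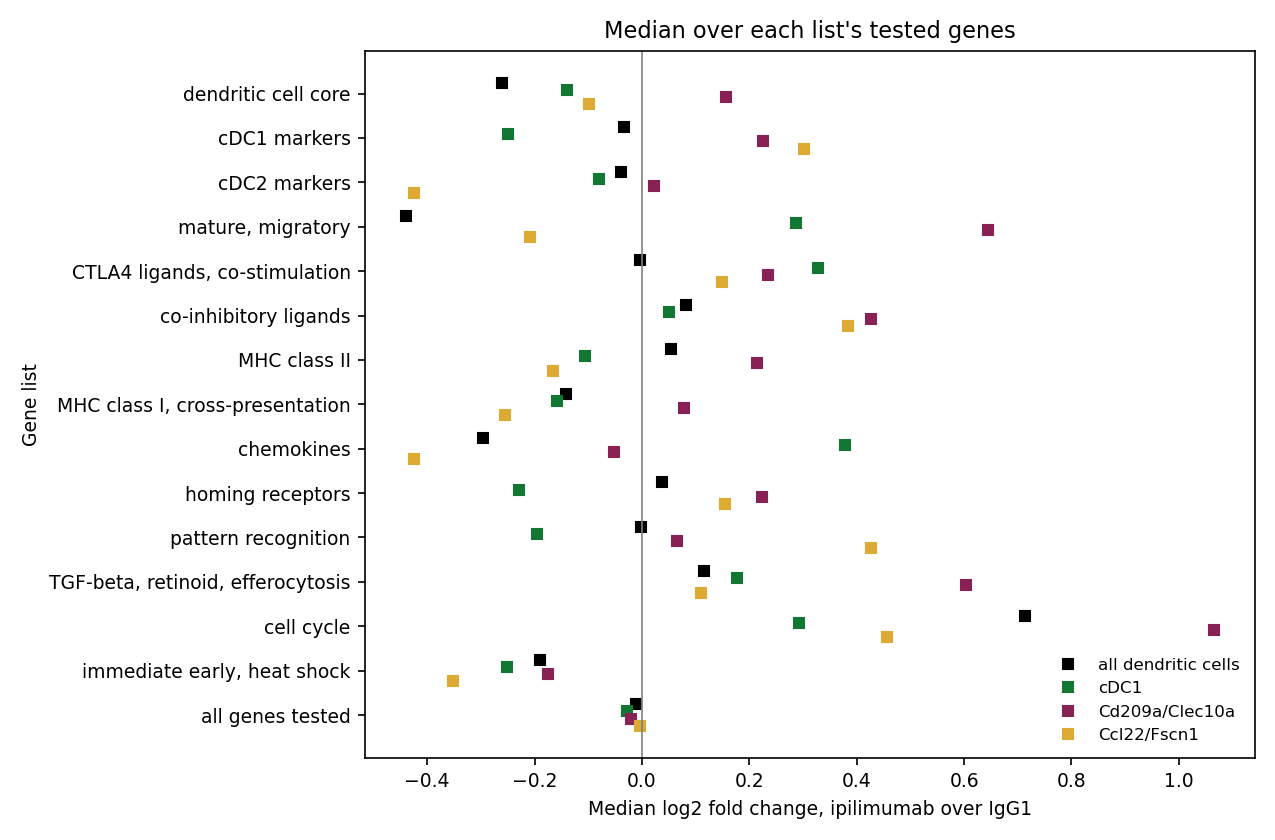
Median log2 fold change (ipilimumab over IgG1) over the tested genes of each list, in all dendritic cells and in each subset, with the median over all genes tested in the last line. The mature, migratory list, here with Ccl22 and Fscn1, stands at -0.44 in all dendritic cells and at 0.64 in Cd209a/Clec10a cells, where 10 of its genes passed the filter on low counts; each median covers such genes alone.

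MHC class II genes gave no call over all dendritic cells. Cd74 stood at 13736, 13623 and 11012 CPM in the dendritic cells of the IgG1 mice and at 10547, 12370 and 15997 in those of the ipilimumab mice, with full overlap and a log2 fold change of 0.02 (SE 0.16). Of 15 class II genes, all tested, 1 was lower in every ipilimumab mouse, H2-Eb2, at 55.3, 75.9 and 53.2 CPM against 42.6, 29.2 and 28.6 (log2 fold change -0.90, SE 0.28, edgeR adjusted p 0.980), none was higher, and the median was 0.05. Of 16 class I and cross-presentation genes, 4 were lower in each ipilimumab mouse (B2m, Psmb8, Psmb9 and Nlrc5) and 1 higher (Erap1). Their median was -0.14 beside -0.01 over all genes. Among all genes tested 5.19% were lower and 4.71% higher in this way, and the class II count lay near these shares. B2m, the light chain of class I, stood at 1868, 1901 and 1913 CPM against 1296, 1738 and 1338 (log2 fold change -0.38, SE 0.15, edgeR adjusted p 0.980); in plain CPM it averaged 2486 ± 623 in Ccl22/Fscn1 cells against 1300 ± 59.0 in Cd209a/Clec10a cells.

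In Ccl22/Fscn1 cells the named genes were of other kinds. Klf4, a transcription factor of cDC2 development, stood at 159, 354 and 166 CPM in the IgG1 mice and at 18.1, 81.3 and 55.0 in the ipilimumab mice (log2 fold change -2.03, SE 0.52, edgeR adjusted p 0.996). Ftl1, ferritin light chain, stood at 3810, 5647 and 7188 CPM against 1251, 2726 and 2949 (-1.26, SE 0.34, 0.996), and Ifi30, a thiol reductase of antigen processing, at 1244, 1343 and 1770 against 326, 767 and 1100 (-0.97, SE 0.38, 0.996). Rilpl2 was higher in each ipilimumab mouse, at 84.2, 49.2 and 127 CPM against 218, 230 and 280.

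In cDC1 only IgG1 2 and IgG1 3, with 5 cells each, stood against 3 ipilimumab mice. Of these cells 2 of 5 and 4 of 5 were marked by the plasmacytoid genes, against 3 of 8, 4 of 9 and 2 of 16 in the ipilimumab mice, and ipilimumab 3 included the 2 cells rich in Scgb1a1; without the cells rich in Scgb1a1 edgeR called 1 gene in cDC1, and the part of the plasmacytoid-marked cells was not tested. Csf2rb, the shared beta chain of the GM-CSF, IL-3 and IL-5 receptors, was at 256 and 247 CPM against 617, 642 and 845 (log2 fold change 1.48, SE 0.32, edgeR adjusted p 0.746). Tsc22d3, a glucocorticoid-induced gene, was at 205 and 210 CPM against 45.7, 73.6 and 54.2 (-1.82, SE 0.38, 0.746). Tsc22d3 and Hspa1a reached the limit of the filter, 68.7 CPM in 2 mice, in both IgG1 mice and in none of the ipilimumab mice. Hspa1a, a heat shock gene whose reads may be shared with its near copy Hspa1b, was at 1035 and 128 CPM against 38.1, 10.5 and 51.5 (-4.02, SE 0.89, 0.746), but 1 cell of IgG1 2 held 98 of its 101 UMIs, and without IgG1 2, which leaves 1 IgG1 mouse whose spread is then assumed to be that of the ipilimumab mice, the log2 fold change was -1.84.

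Whether treatment acted differently by subset was tested as the interaction of subset and treatment with the mouse as a block. Of 5335 genes, 0 (0%) were called for cDC1 minus Cd209a/Clec10a cells, with 233 at an unadjusted p under 0.05 and 3 called by DESeq2, and 0 (0%) for Ccl22/Fscn1 cells minus Cd209a/Clec10a cells, with 215 and 0. For Cxcl2 the log2 fold change was lower by 2.90 (SE 1.84) in cDC1 and lower by 2.04 (SE 1.09) in Ccl22/Fscn1 cells than in Cd209a/Clec10a cells, for Cd40 by 0.59 (SE 1.71) and 1.20 (SE 0.86), and for Cd80 by 0.78 (SE 0.48) and 0.76 (SE 0.42), each with an edgeR adjusted p of 1. For cDC1 minus Cd209a/Clec10a cells the difference with the smallest p was Pak1, a kinase of the actin skeleton, at -2.43 (SE 0.43, edgeR adjusted p 0.352). For Ccl22/Fscn1 cells minus Cd209a/Clec10a cells Bcl2a1b at -2.01 (SE 0.40) and Ftl1 at -1.70 (SE 0.37) led, each with an edgeR adjusted p of 0.741. Ccl22 ranked beside them at -3.52 (SE 0.76). Its UMIs helped to choose the cells and to split these subsets, so its value is a description without a test. In Cd209a/Clec10a cells Ccl22 reached the limit of the filter in no mouse. The treatment differences in Cd209a/Clec10a cells were therefore not shown to differ from those of the other subsets.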

How the data were processed

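Right lungs of 6 mice were profiled with 10x single-cell 3′ chemistry, 1 library per mouse. The deposited files hold whole-number UMI counts per gene and barcode, made by the authors with Cell Ranger on mm10; the submitters' processing notes give version 7.0.0, and the sources used here do not give one version throughout. All barcodes of the unfiltered matrices (32285 genes) were read and filtered as stated in the report; doublets were scored against simulated pairs, without removing cells. The members, lists and tests were chosen with earlier results of these data known.

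UMI counts of each subset were summed per mouse where at least 5 cells were present, filtered with filterByExpr, scaled with TMM and tested with edgeR 4.0.16 (quasi-likelihood, robust, Benjamini-Hochberg adjustment) in R 4.3.3. DESeq2 1.42.0 and limma 3.58.1 served alternatives. Shares were compared with exact two-sided permutation tests (scipy 1.17.1), and 95% Wilson intervals cover counting error only. Fits were tested on simulated data. The alternatives were other scalings, no filter on low counts, other limits for cells, equal subset weights, a replicate block and leaving out each mouse; removing cells marked by plasmacytoid, monocyte or Scgb1a1 UMIs was chosen after seeing the data. Candidate genes were drawn by rule. These were the genes that chose the cells and tested members of the co-stimulation and class II lists. They also held the 3 most abundant members of the other lists and the 10 leading genes of each subset. The last were the 5 higher and 5 lower genes of smallest p with separate groups in each fit. The text describes only part of these candidates. Left out are, among others, Wwox, Mbp, Tcof1, Mt1, Mtor, Usp37, Tmtc2 and Rere. Also left out is Ablim1, which had a smaller p than Cxcl2 over all dendritic cells (log2 fold change 2.42, SE 0.38, edgeR adjusted p 0.561). Other named genes (among them Ccr7, Ccl17, Cd274, Naaa, Cadm1, Aldh1a2, Itgb8, Fcgr3, Irf4 and Ifi30) come from those lists and were chosen after their values were seen. Promoter sequences are from RefSeq and gene positions from GENCODE. Each library is 1 mouse, so p-values measure the spread between these mice.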

Additional observations from a re-analysis of the deposited data

How the results depend on the processing

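No gene was called over all dendritic cells under any leave-one-out fit. Without the filter on low counts 60 genes were called over all dendritic cells, 25 in cDC1, 60 in Cd209a/Clec10a cells, 28 in Ccl22/Fscn1 cells, 16 for cDC1 minus Cd209a/Clec10a cells and 26 for Ccl22/Fscn1 cells minus Cd209a/Clec10a cells. DESeq2 called 1, 1, 3, 0, 3 and 0. Leaving out 1 mouse gave 0 to 1 calls in cDC1 (1 without IgG1 3), 0 to 4 in Cd209a/Clec10a cells (4 without IgG1 1, among them Cxcl2 at a log2 fold change of 5.02, and 1 without ipilimumab 1) and 0 to 1 in Ccl22/Fscn1 cells (1 without IgG1 3). Without the cells with Scgb1a1 UMIs 1 gene was called in cDC1. Leaving out an IgG1 mouse in cDC1 leaves 1 such mouse, assumed to vary like the others. The causes were not tested.

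With the replicate number as a block, 6 genes were called in cDC1 and 1 in Cd209a/Clec10a cells, Cxcl2 (log2 fold change 3.95, edgeR adjusted p 0.0218), and the block changed no other count of calls among the treatment comparisons. The deviations of same-numbered mice from their group means correlated at -0.174, -0.049 and -0.098 over all dendritic cells. In Ccl22/Fscn1 cells these values were 0.058, -0.164 and 0.084. With 3 mice per treatment such values cannot tell whether same-numbered mice shared a batch. The labels give only the number, and a shared batch was not tested. For the shares the blocked exact sign-flip permutation p was 0.25 each.

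The share of Ccl22/Fscn1 cells turned to 0.0258 points higher as a share of all passing barcodes. Without 1 mouse the differences ran from 0.260 to 0.603 points for all dendritic cells, from 4.30 to 8.96 for cDC1, from 5.32 to 7.68 for Cd209a/Clec10a cells and from -17.5 to -8.23 for Ccl22/Fscn1 cells. Without 1 mouse the log2 fold change ran from -0.0498 (without IgG1 3) to 0.8188 for Cd80 over all dendritic cells, from -0.1219 (without IgG1 3) to 0.9924 for Cd86 in cDC1, from -0.0918 (without IgG1 2) to 0.6581 for Cd86 in Cd209a/Clec10a cells, from -0.1018 (without IgG1 3) to 0.6813 for Cd80 in Ccl22/Fscn1 cells and from -0.3167 to 0.0439 (without IgG1 3) for Fscn1 there. The difference for Cd40 between cDC1 and Cd209a/Clec10a cells ran from -2.1197 to 0.1129 (without ipilimumab 2). Without cells carrying defining markers of B, T, NK, alveolar macrophage or epithelial cells, Cd80 was at -0.0004 and Ccr7 at 0.0099 in Ccl22/Fscn1 cells. Of the values for single genes 1169 kept their direction and their side of the threshold, 33 passed it and 8 reversed. Removing cells with those markers was not run in cDC1 and Cd209a/Clec10a cells, nor removing plasmacytoid-marked or monocyte-marked cells in cDC1, where too few cells were left.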

Other observations

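Of 22 cell cycle genes, 17 were tested over all dendritic cells. Of these, 3 were higher in every ipilimumab mouse (Cks1b, Mcm3 and Mcm6) and none was lower. Among all genes tested 4.71% were higher and 5.19% lower in this way. None of the 17 passed the edgeR test. Their median log2 fold change was 0.71 beside -0.01 over all genes, and 0.43 with the subsets at equal weight. Of the 17 genes 11 reached the limit of the filter on low counts in more ipilimumab than IgG1 mice and none in fewer, which tilts the count and the median upward; over the 6 that reached it in every mouse the median was 0.39 beside -0.02 over all such genes. Mcm3, a subunit of the replicative helicase, stood at 26.5, 7.59 and 27.7 CPM in the IgG1 mice and at 41.0, 42.2 and 51.8 in the ipilimumab mice. At least 2 of the 4 genes Mki67, Top2a, Birc5 and Pclaf were detected in 51 of the 219 dendritic cells, with 8, 4 and 2 cells in the IgG1 mice and 9, 10 and 18 in the ipilimumab mice. As shares of the dendritic cells of a mouse these were 34.8%, 12.5% and 8.33% against 25.7%, 20.8% and 31.6%, and the mice overlapped.

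Of 17 immediate early and heat shock genes listed, 16 were tested over all dendritic cells. Of these, 4 were lower in every ipilimumab mouse (Egr1, Atf3, Zfp36 and Hspa1b) and none was higher. Among all genes tested 5.19% were lower and 4.71% higher in this way. None of the 16 passed the edgeR test. Their median log2 fold change was -0.19 beside -0.01 over all genes, with members from -1.83 to 0.15. Egr1, a transcription factor induced within minutes of stimulation or handling, stood at 366, 167 and 202 CPM in the IgG1 mice and at 75.7, 124 and 97.3 in the ipilimumab mice. The part of tissue handling in these values was not tested.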
